A study of Gallus gallus with 54 samples.

Results

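The genes described here are 100 chicken genes whose RNA level varied alike over the library codes in heart, breast muscle (called muscle where brief) and spleen. The study sequenced messenger RNA of these 3 tissues in Ethiopian indigenous chickens, with 54 libraries, 9 for each tissue and altitude. Per the labels, the high altitude breed (codes H1 to H9) was not adapted to heat and the low altitude breed (codes L1 to L9) was adapted to heat. Neither age, sex nor batch is given in the labels used here. The same 18 codes recur in each tissue, but the labels do not say that a code is 1 bird, and a p-value here rests on the spread between the libraries or codes of a group.

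The members were chosen from the measured values. Counts were scaled to CPM, the counts per M counts of a library, with TMM factors, written as log2(CPM + 1) and centred within altitude in each tissue. A gene was eligible with a mean of at least 1 CPM in every tissue, which 9413 of the 24881 gene identifiers met. The Pearson correlation (r) over the 18 codes was taken for each pair of tissues, and the smallest of the 3 values ranked the genes. A set of 581 eligible genes that tracked ENSGALG00000016400 in at least 2 tissues, with an absolute r of 0.5 or more, was left out. The 100 highest of the remaining 8832 genes were taken. Centring removed the altitude difference before the choice, so altitude was not used, whereas every pattern over codes within an altitude was.

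As background, messenger RNA of a whole tissue sums the contents of all its cells. A level that an animal carries in several organs at the same time can follow inherited differences at or near a gene, sex, age, or a state of the whole body that reaches every organ through blood, hormones or immune signals. In such bulk samples fewer cells of a type and less RNA per cell cannot be told apart. The files do not pair the identifiers with gene names, and 0 of them matched the 25635 genes of the reference table, so the role of no member is given.

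Totals were 12.4 to 15.2 M (mega) counts per heart library, 9.31 to 13.1 M per muscle library and 11.6 to 14.3 M per spleen library. The most similar library was of the labelled tissue for 54 of 54 libraries (lowest Spearman correlation within a tissue 0.869, highest between tissues 0.815, over 13320 genes). In breast muscle the libraries H1, H8, H7 and H4 stood apart from the other muscle libraries. Their median Spearman correlations with the other muscle libraries were 0.839, 0.867, 0.889 and 0.890, against 0.918 to 0.954 in the other codes.

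The heart library labelled L9 went against its code. Over the 100 members, its correlation with the L9 libraries was 0.357 for breast muscle and 0.352 for spleen, while with the H9 libraries it was 0.703 and 0.810. The rule favours a match by code, and for every other code the heart library matched its own code best, with r of at least 0.524 for breast muscle and 0.527 for spleen. The H9 heart library matched the H9 libraries at 0.643 and 0.731 and the L9 libraries at 0.350 and 0.323. Muscle and spleen libraries matched their own code best for 18 of 18 codes. The plot of likeness between libraries shows this row.

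**Figure D1:**
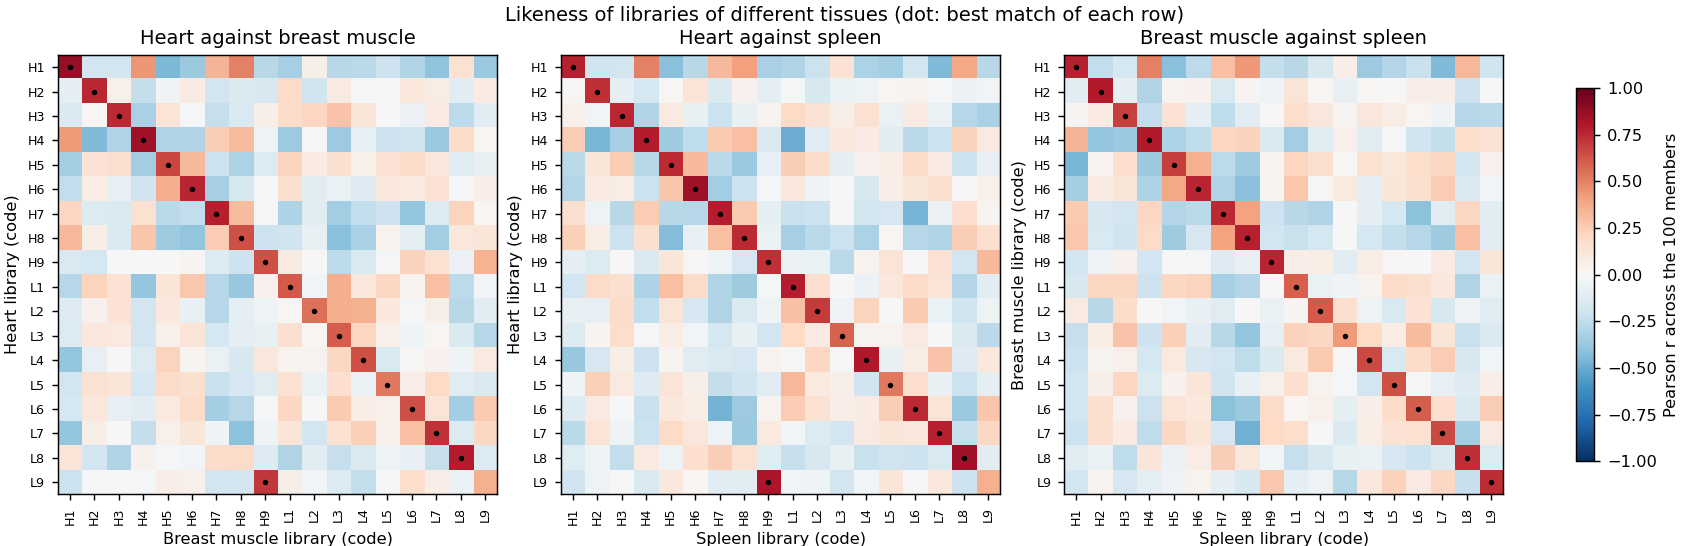
Pearson r across the 100 members between libraries of different tissues, from log2(CPM + 1). Each member was first centred on its mean over all codes of a tissue and divided by its SD, so altitude differences remain. Rows and columns are codes and a dot marks the best match of each row. Dots lie on the diagonal, which the rule favours, except in the heart row labelled L9, whose dots lie under H9 at r = 0.703 (breast muscle) and 0.810 (spleen).

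Within heart, the libraries labelled H9 and L9 were also the most alike. Their r was 0.797 over the members, and the next pair reached 0.377. Over the other eligible genes it was 0.737, and the next pair reached 0.494. The likeness of these codes was not limited to heart. In spleen H9 and L9 were also the most alike pair over the other eligible genes (0.608, next pair 0.559), though not among the 3 most alike pairs over the members, and in breast muscle they were among the 3 most alike pairs over neither. A chi-square index of their counts, which would be about 1 for repeated sampling of the same library, was 7.46 over 12100 genes. The next of the 153 heart pairs had an index of 20.4 and the median pair 148. The H9 and L9 hearts therefore differed by more than sampling noise and were kept as separate libraries. On 500 genes outside the members, chosen by the correlation of muscle and spleen alone, the heart library labelled L9 again reached a higher r with H9 (0.402 and 0.531) than with L9 (0.333 and 0.467). Own-code matches were weak there, best for only 9 and 11 of 18 hearts. Which bird the library came from was not tested. Some of the results that use this library are also given without it, and the others include it.

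The members' smallest correlation ran from 0.554 to 0.914 with a median of 0.642. Over all eligible genes the median was -0.0352, with quartiles of -0.205 and 0.130. The 3 highest members were ENSGALG00000032897 (0.914), ENSGALG00000033800 (0.882) and ENSGALG00000038876 (0.875). The last gene inside the list was ENSGALG00000008812 at 0.5535, and the first outside was ENSGALG00000025959 at 0.5522, so the list has no natural edge. These values chose the members and are a description.

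**Figure D2:**
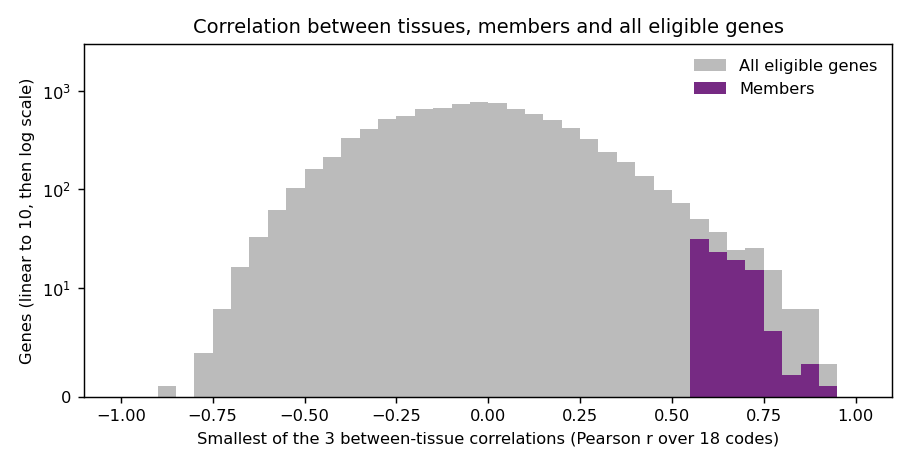
Number of genes by the smallest of their 3 between-tissue correlations (Pearson r over 18 codes), for all eligible genes in grey and the 100 members in purple; the count axis is linear to 10 and logarithmic above. Members start at 0.554, and grey bars above that level hold genes left out for tracking ENSGALG00000016400.

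The members varied more between libraries than other eligible genes, as the choice by correlation favours. Their mean levels had medians of 9.49 CPM for heart, 6.18 CPM for breast muscle and 20.1 CPM for spleen. CPM is not per gene length, so levels are not compared between genes. The tissue with the highest level was spleen for 71 members, breast muscle for 21 and heart for 8, where the eligible genes gave 67.5%, 20.0% and 12.5%. The SD between libraries of an altitude had a median of 0.657 log2 units for heart, 0.820 for muscle and 0.587 for spleen, against 0.402, 0.461 and 0.316 over eligible genes. The lowest and highest of the 18 code means lay 2.28 log2 units apart in the median member and 1.02 in the median eligible gene.

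Most members were graded. A gene was said to have a step where 1 cut of the 18 codes left the upper set at least 0.5 log2 units above the lower set in every tissue. It was called on/off where, in addition, the lower set was under 1 CPM in every library. By these definitions 89 members were graded, 6 had a step that set a single code apart, and 5 had a step with at least 2 codes on either side, of which 1 was on/off. The share of eligible genes with any step was 0.266%, or 25 genes, of which 11 were members. The share that was on/off was 0.0106%, which is the member itself. The rule used the same values, so the difference from the background is not tested. No step had more than 2 codes on its smaller side. Without code L9 there were 13 members with a step and 2 on/off.

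The on/off member was ENSGALG00000038876, which was near 0 in L5 and L8 and present in the other 16 codes. In L5 it stood at 0.414 CPM in heart, 0.430 in muscle and 0.426 in spleen (5, 5 and 6 counts). In L8 it had 0 counts in heart, which allows up to 0.186 CPM, 6 counts (0.526 CPM) in breast muscle and 5 counts (0.421 CPM) in spleen. The other codes ran from 1.72 to 22.3 CPM in heart, from 1.56 to 19.5 CPM in breast muscle and from 2.12 to 16.8 CPM in spleen. Both codes near 0 are of low altitude, and among the other 7 low altitude codes the gene reached its highest values, in L4 heart, L3 breast muscle and L6 spleen. The gap that makes the step was narrowest in breast muscle, at 0.747 log2 units, with H3 as the lowest of the other codes. The 16 other codes were themselves graded.

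ENSGALG00000038429, named after its values were seen, was at or near 0 in H1 and H9. In H1 it had 0 counts in all 3 tissues, which allows up to 0.170 CPM in heart, 0.172 in muscle and 0.218 in spleen. In H9 it had 1 count in heart and 0 in breast muscle and spleen. The heart library labelled L9 had 0 counts, although L9 breast muscle had 55 counts (4.201 CPM) and L9 spleen 73 counts (4.28 CPM). All other codes held 1.01 to 6.35 CPM in heart, 1.82 to 8.28 CPM in breast muscle and 2.09 to 8.13 CPM in spleen. With L9 in the set the gene was graded, and without L9 it was on/off with H1 and H9 as the lower set and a narrowest gap of 0.894 log2 units. The heart library labelled L9 was thus at the level of the H9 tissues for this gene.

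**Figure D3:**
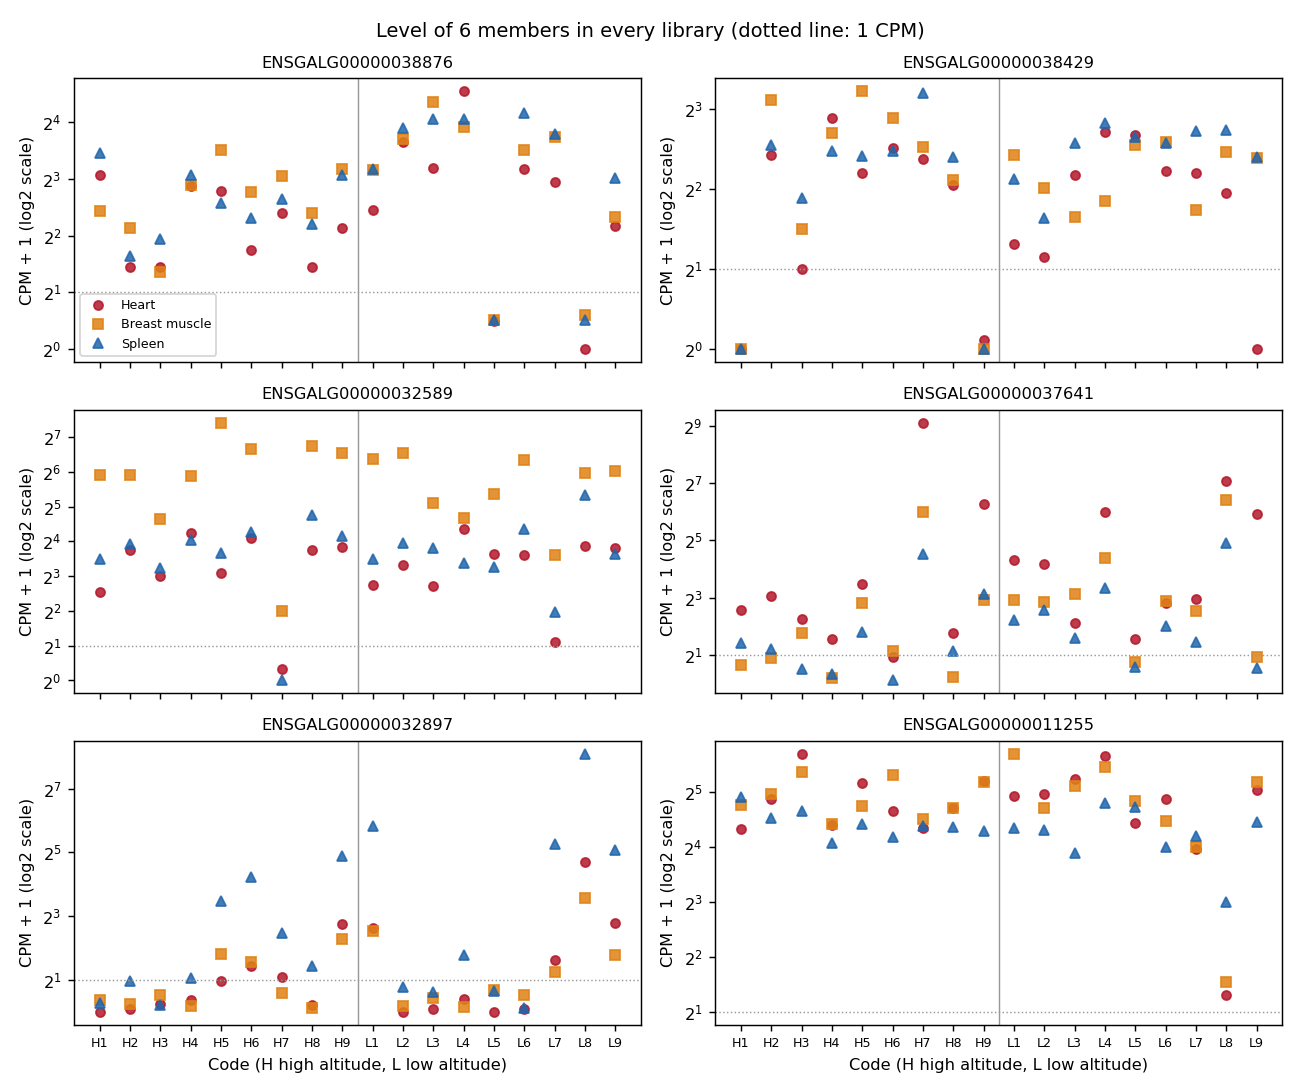
Level of 6 members in each of the 54 libraries as CPM + 1 on a log2 axis, with heart as circles, breast muscle as squares and spleen as triangles; high altitude codes lie left of the line and the dotted line marks 1 CPM. ENSGALG00000038876 is under 1 CPM in L5 and L8 in all tissues, and ENSGALG00000038429 is at 0 or 1 count in H1, H9 and the heart library labelled L9.

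Of the 5 steps with 2 codes on the smaller side, 3 had 1 code of each altitude there. ENSGALG00000032589 was low in H7 and L7. In H7 it stood at 0.253 CPM in heart, 3.01 in muscle and 0 counts in spleen (up to 0.246 CPM), and in L7 at 1.15, 11.2 and 2.89 CPM. The other 16 codes held 4.81 to 19.5 CPM in heart, 23.8 to 170 CPM in breast muscle and 8.32 to 39.1 CPM in spleen. H7 lay below L7 in all 3 tissues, so the low set itself has an order, and the tissue with the highest level stayed breast muscle even in H7.

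ENSGALG00000037641 was the reverse, with H7 and L8 high. H7 held 553 CPM in heart, 62.1 in muscle and 21.9 in spleen, and L8 held 132, 83.9 and 29.3 CPM. The median of the other 16 codes was 6.37 CPM in heart, 3.64 in muscle and 1.71 in spleen, with highest values of 77.1, 19.6 and 8.995 CPM. Below the step the gene was still spread widely. H9, L4 and the heart library labelled L9 came next in heart at 77.1, 62.0 and 60.1 CPM, while L9 breast muscle (0.917 CPM) and L9 spleen (0.469 CPM) lay under the medians of those tissues.

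ENSGALG00000038879 was low in H6 and L1. H6 held 0.441 CPM in heart, 0.550 in muscle and 0.966 in spleen, and L1 held 0.770, 0.888 and 1.91 CPM. The other codes started at 1.87 CPM in heart, 6.51 in muscle and 4.53 in spleen and reached 23.5, 49.4 and 20.1 CPM. The widest gap, 1.99 log2 units, was in breast muscle. Only the L1 spleen library kept this member from being on/off. The remaining step member outside the named rule had H1 and H6 as its lower set.

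Single codes were set apart in 6 members, with L8 and H1 as the code for 5 of them. ENSGALG00000032897, the first gene of the ranking, was highest in L8, at 24.7 CPM in heart, 10.96 in muscle and 271 in spleen. Its next highest libraries were the one labelled L9 in heart (5.88 CPM) and L1 in breast muscle (4.80 CPM) and spleen (56.2 CPM). In 7 codes (H1, H2, H3, L2, L3, L5 and L6) it was under 1 CPM in all tissues. In high altitude spleens it ran from 0.163 through a median of 1.71 to 28.6 CPM, and in low altitude spleens from 0.0783 through 2.42 to 271 CPM. The gene thus spans near 0 to high values in both altitudes, with no further cut below L8.

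ENSGALG00000011255 was set apart downward by L8. L8 held 1.49 CPM in heart, 1.93 in muscle and 6.99 in spleen, while the other 17 codes held 14.6 to 50.7, 15.1 to 51.0 and 13.9 to 29.0 CPM. The gap was 2.65 log2 units in heart, 2.46 in muscle and 0.90 in spleen. L7 was the next lowest code in heart and breast muscle, and L3 in spleen. ENSGALG00000004932, named after its values were seen, was lowest in L8 too, at 2.04, 0.702 and 6.40 CPM, against medians of 5.65, 3.68 and 20.3 CPM in the other codes. L8 remained the lowest library in all 3 tissues for both members. Without L8 the smallest r fell to 0.154 for ENSGALG00000011255 and to 0.0526 for ENSGALG00000004932.

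ENSGALG00000002618 was set apart upward by H7, at 8.91 CPM in heart, 15.0 in muscle and 16.9 in spleen. The other codes reached at most 3.84, 4.48 and 7.11 CPM, with medians of 2.43, 1.55 and 3.72 CPM. Without H7 its smallest r was -0.00426, so its likeness between tissues rested on that code. By contrast, ENSGALG00000032897 kept 0.876 without L8. The 2 members set apart by H1 were high there, and 1 of them, ENSGALG00000041988, is described with the altitude comparison. L8 entered the smaller side of 5 steps and H1 and H7 of 3 each, while H2, H3, H4, H5, H8, H9, L2, L3, L4, L6 and L9 entered none.

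Near-zero codes were more frequent than steps of the on/off kind. By a definition added after the data were seen, 10 members were under 1 CPM in all 3 tissues of at least 1 code and at 4 CPM or more in all 3 tissues of another. The background was 15 of 9413 eligible genes (0.159%). For ENSGALG00000038410, named after its values were seen, L4 held 0 counts in heart and breast muscle and 0.999 CPM in spleen, L5 held 20.7, 11.01 and 23.3 CPM, and L8 held 14.9, 31.5 and 88.4 CPM. Intermediate codes filled the range between, which is why the gene was graded. H1 was off in 5 of the 10 members, and H3 and L5 in 3 each.

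The graded members include the second gene of the ranking, ENSGALG00000033800. In high altitude libraries it ran from 0 through a median of 1.51 to 22.7 CPM in heart, from 0 through 0.127 to 12.2 CPM in breast muscle and from 0.0816 through 4.94 to 74.7 CPM in spleen. In low altitude libraries the lowest, median and highest values were 0.166, 1.08 and 6.44 CPM in heart, 0, 0.433 and 3.33 CPM in breast muscle and 1.72, 5.43 and 66.6 CPM in spleen. H2, H7, H8 and L8 were the 4 highest codes in heart and spleen. In breast muscle L9 (2.98 CPM) lay just below L8 (3.33 CPM), and L9 alone closed the gap between these 4 codes and the rest. Without code L9 the gene had a step of 1.10 log2 units with these 4 codes as the upper set.

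ENSGALG00000040837 showed a graded pattern, at low counts in heart and breast muscle. Its levels were 0.560 to 3.44 CPM in heart, 0.153 to 3.12 CPM in breast muscle and 1.11 to 14.4 CPM in spleen. L7 and H6 were the highest and next highest code in each tissue, with 51 and 45 counts in heart. L9 was the lowest code in breast muscle (2 counts) and spleen (19 counts). With so few counts in heart and breast muscle, counting error adds to each value, and its share was not computed.

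The members did not share 1 pattern. Average linkage of the code means, cut at a height of 0.3, left 54 members alone, 5 pairs, and groups of 19, 7, 5 and 5. The heat map of the code means shows these groups. Membership of a group rests on the same values as the choice of members and is a description.

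**Figure D4:**
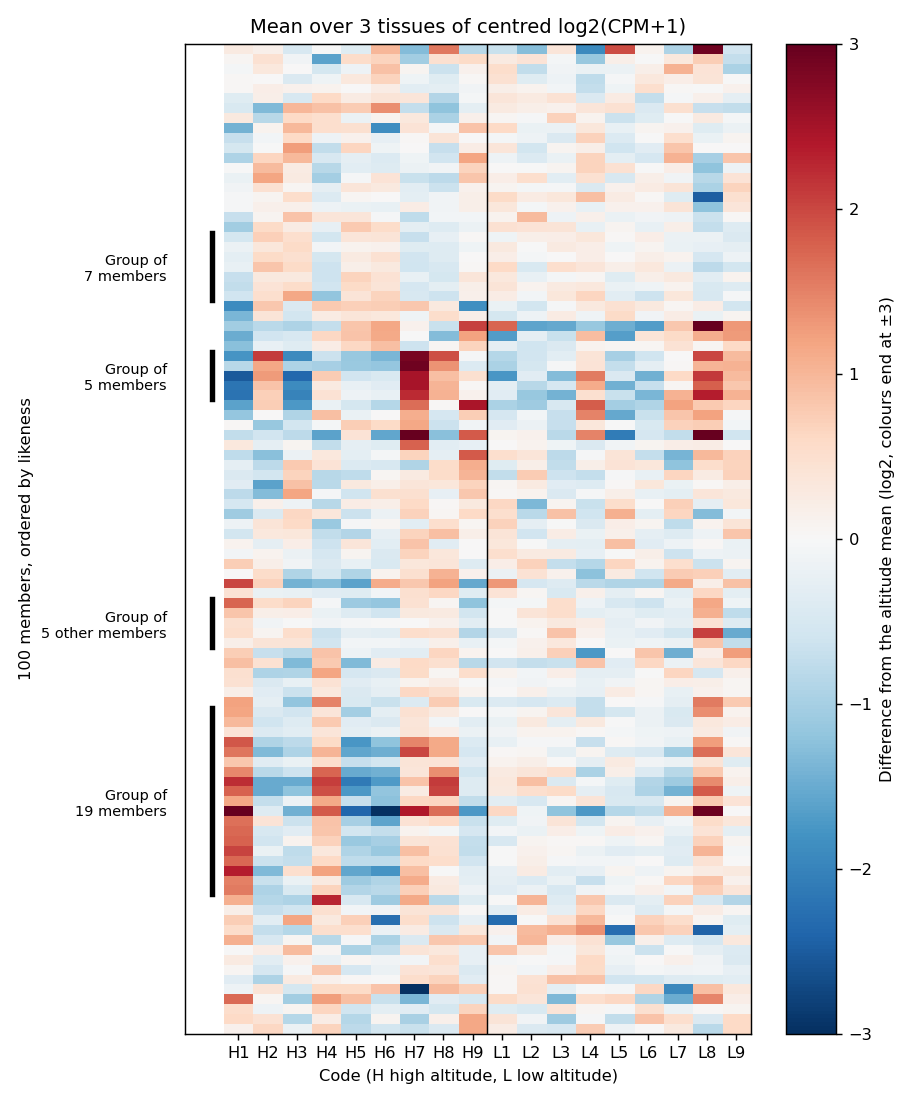
Mean over the 3 tissues of log2(CPM + 1) centred within altitude for the 100 members (rows, ordered by likeness) and 18 codes (columns); bars at the left mark the groups of 19, 7, 5 and 5 members. The group of 19 is high in H1 (1.64) and L8 (0.949) and low in H5 (-1.15) and H6 (-1.14).

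The group of 19 was high in H1, L8, H4, H7 and H8 and low in H5 and H6. The group's mean centred level was 1.64 in H1, 0.949 in L8, 0.936 in H4, 0.775 in H7 and 0.703 in H8, and -1.15 in H5 and -1.14 in H6, in log2 units. Correlations between its members ran from 0.591 to 0.957 with a median of 0.818. H1, H4, H7 and H8 are also the 4 codes whose breast muscle libraries stood apart, and the part of this in the pattern was not tested. The median r of these 19 members with ENSGALG00000016400, which the rule limits, was 0.358 in heart, 0.380 in muscle and 0.435 in spleen, above the medians of all members (0.0878, 0.00468 and 0.0546).

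Within this group ENSGALG00000032422 had the highest smallest correlation. H1 held 19.5 CPM in heart, 18.1 in muscle and 29.7 in spleen. The high altitude medians were 1.45, 3.29 and 9.47 CPM and the low altitude medians 1.42, 0.707 and 9.11 CPM. L8 was the highest low altitude code in each tissue, at 3.84, 2.72 and 19.5 CPM.

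ENSGALG00000015209, the other member named from the group, had H1 and H7 high in each tissue. H1 held 93.5 CPM in heart, 250 in muscle and 100 in spleen, H7 held 75.4, 214 and 64.8 CPM, and H5 held 12.3, 4.21 and 18.7 CPM. H5 was the lowest high altitude code in all 3 tissues. The high altitude range was widest in breast muscle, where the SD was 2.21 log2 units against 0.945 in heart and 0.822 in spleen (n = 9 each).

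The group of 7 ran opposite to the group of 19, with r of -0.875 between the mean patterns of the groups over 18 codes. It was highest in H3 (0.589) and H2 (0.523) and lowest in H4 (-0.597). The first group of 5, which holds ENSGALG00000033800, was high in H7 (2.59), L8 (1.86), H8 (1.25) and H2 (1.22) and low in H1 (-1.91) and H3 (-1.81). All 5 of its members had their highest level in spleen. The second group of 5, which holds ENSGALG00000008812, was high in L8 (1.11) and H1 (0.750) and low in L9 (-0.709) and H9 (-0.637). Its L9 value was of like size in the tissues that matched their label (-0.637 in breast muscle and -0.836 in spleen). The median r with ENSGALG00000016400 in heart, muscle and spleen was -0.334, -0.296 and -0.501 in the group of 7. It was 0.232, -0.0890 and 0.00766 in the first group of 5 and 0.240, 0.0974 and 0.511 in the second.

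ENSGALG00000008812, the last gene inside the list, had a narrow pattern. Its SD within altitude was 0.339 log2 units in heart, 0.222 in muscle and 0.314 in spleen. Members near the edge were not all narrow, as ENSGALG00000033680 (rank 92) had 1.64, 1.17 and 1.83. The high altitude libraries of ENSGALG00000008812 ran from 85.4 through a median of 116 to 204 CPM in heart. They ran from 112 through 141 to 197 CPM in breast muscle and from 205 through 266 to 332 CPM in spleen. Its low altitude libraries ran from 80.9 through 98.8 to 155, from 106 through 139 to 153 and from 157 through 238 to 392 CPM. H1 was highest among high altitude hearts and muscles, and L9 lowest among low altitude hearts and spleens.

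The patterns were carried unequally by the altitudes. In the counts below the low altitude codes include L9, whose heart library went against its code. These counts are not given without L9. Computed within the 9 high altitude codes alone, 87 members kept a smallest r of 0.5 or more (5.28% of eligible genes do so), and within the 9 low altitude codes 55 did (4.01%). The rule used these same values, so an excess over the eligible genes follows from the choice and is not a test. Both altitudes reached it in 42 members (0.967%), only the high altitude codes in 45 and only the low altitude codes in 13. The split differed between the groups, which were formed from the same values. All 19 members of the largest group reached 0.5 in the high altitude codes and 3 did in the low altitude codes, with medians of 0.781 and 0.234. In the second group of 5 it was 1 in the high altitude codes and 5 in the low altitude codes. The group of 7 had 7 and 2, and the first group of 5 had 5 and 4, so that group was not split.

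A check that does not use the same codes to choose and to read was made by applying the rule to 1 altitude at a time. Of 100 genes chosen in the high altitude codes, 24 had a smallest r of 0.5 or more in the low altitude codes, against 3.24% of the 8832 genes, and their median was 0.218 against -0.0831. Of 100 genes chosen in the low altitude codes, 25 reached it in the high altitude codes, against 4.12%, and their median was 0.154 against -0.166. These gene lists share 60 and 35 genes with the members, and the exclusion for ENSGALG00000016400 still used all codes. The low altitude codes again include L9. Genes are not independent replicates, and libraries of a code share whatever sets that code apart.

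Single codes carried much of some members' correlation. Leaving out each code in turn, 63 of 100 members kept a smallest r of at least 0.5 throughout. The lowest value for each member had a median of 0.540 and a minimum of -0.00426, for ENSGALG00000002618 without H7. The code whose removal lowered r most was H1 for 21 members and L8 for 16. In values centred within altitude and averaged over the tissues, H1 was also the highest code for 23 members (13.4% of eligible genes). H5 was the lowest in these values for 15 members (5.56%). Without code L9, 85 of the 100 members were chosen again.

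Altitude was then compared for the members, since the rule had centred it out. The question was whether genes that differ between codes in all tissues also differ between the high and low altitude breeds. No member passed an adjusted p of 0.05 in edgeR's quasi-likelihood test (Benjamini-Hochberg adjustment over all genes tested) in heart (0 of 98 tested, percent of all genes called 0), breast muscle (0 of 91, 0.00988%) or spleen (0 of 100, 0%). A limma fit of the mean over tissues per code also called 0 of 100 (0%). In no eligible gene, member or not, did all 9 code means of one altitude lie beyond all 9 of the other.

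At an unadjusted p under 0.05, more members had lower than higher fitted levels at low altitude. In heart 20 members were under it (6.05% of all genes), 16 lower and 4 higher, against 2.78% and 3.27% of all genes. Without the heart library labelled L9, 22 members and 892 of 11939 genes were under it there. In breast muscle 19 were (18.2%), 17 lower and 2 higher, against 11.7% and 6.48%. The spleen fit gave 15 (5.77%), 12 lower and 3 higher, against 2.83% and 2.95%. The code mean gave 13 (9.15%), 11 lower and 2 higher, against 4.19% and 4.96%. The breast muscle count is thus close to the share of all genes. DESeq2 called 3 members in heart, 7 in muscle and 1 in spleen at an adjusted p of 0.05. Over all genes DESeq2 called 22 of 11872 in heart, 469 of 9923 in muscle and 20 of 13092 in spleen. Of the 4 members named below for altitude, ENSGALG00000041988 was among its calls in heart and breast muscle, and ENSGALG00000003991 and ENSGALG00000037321 in breast muscle, while ENSGALG00000032571 was called in no tissue. The median log2 fold change of the members, low over high altitude, was -0.03 in heart, 0.00 in muscle and -0.07 in spleen. Over all genes it was 0.00, -0.05 and 0.00. Members went both ways, and the median size of their fold changes was 0.334, 0.394 and 0.254, against 0.173, 0.275 and 0.131 over all genes. The members also varied more between libraries of an altitude, as the choice favours. A wider spread by itself gives larger fold changes of either sign, so these sizes do not measure an altitude difference.

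Most of the lower members came from the group of 19. All of its tested members had lower fitted levels at low altitude, 19 in heart, 16 in muscle and 19 in spleen. The members were grouped by a like pattern over codes, and the tissues share the codes. These counts are therefore not independent, and the members are not replicates. The group supplied 14 of the 16 lower members in heart, 10 of the 17 in muscle, 9 of the 12 in spleen and 8 of the 11 for the code mean. Its median log2 fold change was -1.08 in heart, -1.04 in muscle, -0.50 in spleen and -0.65 for the code mean. H1, H4, H7 and H8 are the 4 high altitude codes in which the group was highest, as the values that formed it show. Without them, an alternative chosen after seeing the data, the medians were 0.08, 0.18, 0.12 and 0.09, with 6, 5, 4 and 6 members lower. Leaving out a group's highest codes on 1 side must raise its fold change, so these values only say that the negative medians rest on those 4 codes. Without the heart library labelled L9, 19 of 19 were lower in heart with a median of -1.15.

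**Figure D5:**
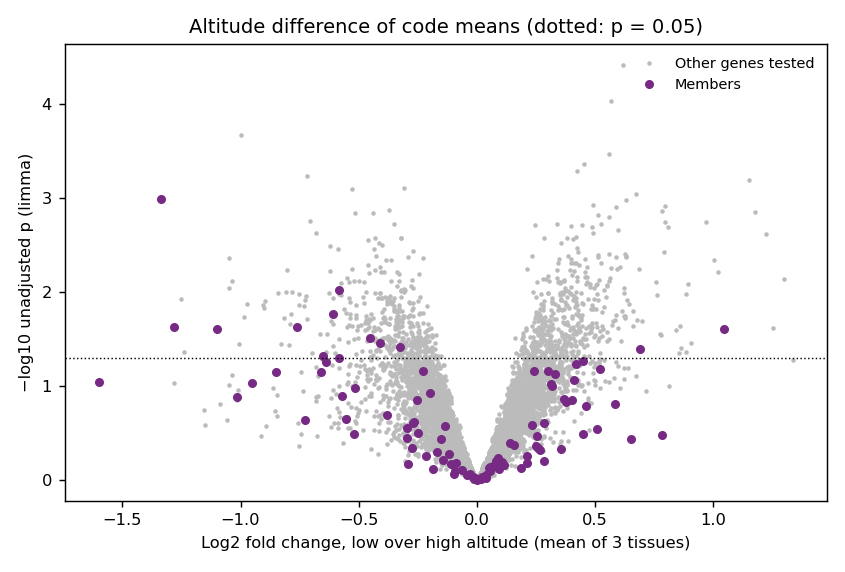
Altitude difference of the code means (log2, low over high) against -log10 of the unadjusted limma p for 9413 genes, with the 100 members in purple and a dotted line at 0.05. No gene passed after adjustment, and of the 13 members above the line 11 lie on the lower side.

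ENSGALG00000041988 had the smallest p among members for the code mean and a negative fold change. In heart it ran from 46.6 through a median of 135 to 603 CPM at high altitude and from 12.2 through 32.9 to 84.2 CPM at low altitude. In breast muscle the values were 173, 594 and 1441 against 158, 264 and 656 CPM, and in spleen 13.2, 34.6 and 116 against 11.3, 20.9 and 33.1 CPM. The altitudes overlapped in each tissue, H1 was the highest library in each, and the highest low altitude heart was the library labelled L9.

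For this gene the code mean was 5.88 ± 0.365 at low and 7.22 ± 1.03 at high altitude (SD, n = 9 codes each), a log2 fold change of -1.34 (SE 0.342, limma adjusted p = 0.509), with 9 of 9 low altitude codes under the high altitude median. Without H1, H4, H7 and H8 the fold change of the code mean was -0.63 (limma adjusted p = 0.99998). H1 was the highest library in each tissue, so leaving it out must make the fold change smaller in size. In heart edgeR gave -2.53 (SE 0.477, adjusted p = 0.247), and -2.78 (SE 0.483, adjusted p = 0.164) without the library labelled L9. DESeq2 gave -2.53 (SE 0.433, adjusted p = 6.63e-05) there. For breast muscle edgeR gave -1.14 (SE 0.354, adjusted p = 0.109) and DESeq2 -1.14 (SE 0.349, adjusted p = 0.0339). In the fit of heart minus muscle per code its altitude difference was -1.17 (SE 0.364, limma adjusted p = 0.264).

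ENSGALG00000003991 had its smallest p in breast muscle. There it ran from 4.25 through a median of 10.3 to 19.4 CPM at high altitude and from 3.67 through 4.56 to 7.55 CPM at low altitude. In heart the medians were 12.8 and 9.88 CPM, and in spleen 22.0 and 17.5 CPM. H4 and H1 were the high altitude muscle libraries that lay within the low altitude range.

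In breast muscle the log2 fold change of ENSGALG00000003991 was -1.20 (SE 0.241, edgeR adjusted p = 0.0734), with 9 of 9 low altitude libraries under the high altitude median, and it passed the threshold without H1, H4, H7 and H8. H4 and H1 were its lowest high altitude muscle libraries, so leaving them out must widen the difference. H8, the highest, was left out too. Passing the threshold in this setting is therefore no added support. DESeq2 gave -1.21 (SE 0.252, adjusted p = 0.000792). The code mean gave -0.58 (SE 0.205, limma adjusted p = 0.509). In the fit of muscle minus spleen per code the difference was -0.62 (SE 0.210, limma adjusted p = 0.216).

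ENSGALG00000032571 had the smallest p of the members with a positive fold change. In spleen it ran from 0.867 through a median of 1.45 to 25.9 CPM at high altitude and from 6.15 through 9.61 to 26.1 CPM at low altitude. In breast muscle the values were 0.0972, 0.347 and 10.6 against 1.46, 2.67 and 11.1 CPM. In heart they were 0.294, 0.687 and 9.98 against 0.0676, 4.10 and 13.6 CPM, the lowest being the library labelled L9 with 1 count.

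The high altitude codes of ENSGALG00000032571 were spread unevenly. H1, H4 and H7 held at least 3.79 CPM in every tissue, within the low altitude range, and H2, H3, H6 and H8 at most 1.45 CPM, with H5 at 5.29 CPM in spleen and lower in the other tissues. H9 was at 0.0972 CPM in breast muscle and 0.867 CPM in spleen but at 5.95 CPM in heart, while L9 was at 2.67 and 9.61 CPM in breast muscle and spleen. For this gene the heart library labelled L9 again resembled the H9 tissues, and the H9 heart did not.

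Its code mean was 2.68 ± 0.672 at low and 1.63 ± 1.19 at high altitude (SD, n = 9 each), a log2 fold change of 1.05 (SE 0.429, limma adjusted p = 0.513), with 9 of 9 low altitude codes above the high altitude median. Without H1, H4, H7 and H8 it was 1.78, the adjusted p was 0.0598, and the breast muscle fit called ENSGALG00000032571. H1, H4 and H7 were high altitude codes with high levels of this gene, so leaving them out must raise its fold change. Without code L9 it was 1.16, and the fold changes of ENSGALG00000041988, ENSGALG00000003991 and ENSGALG00000037321 were -1.38, -0.63 and 0.70.

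ENSGALG00000037321 was the other member named for a positive fold change. In breast muscle it ran from 0.517 through a median of 2.42 to 6.42 CPM at high altitude and from 1.48 through 6.88 to 18.1 CPM at low altitude. The medians were 14.5 and 16.9 CPM in heart and 1.15 and 1.35 CPM in spleen. L5, L3 and L7 were the highest low altitude hearts and H1 the lowest high altitude heart. The code mean gave a log2 fold change of 0.69 (SE 0.315, limma adjusted p = 0.532), with 7 of 9 low altitude codes above the high altitude median. In breast muscle edgeR gave 1.60 (SE 0.512, adjusted p = 0.120) and DESeq2 1.60 (SE 0.491, adjusted p = 0.0342).

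Differences between tissues per code tested if the altitude comparison gave unlike results by tissue. The limma fits called 0 of 100 members for heart minus muscle (0% of all genes), heart minus spleen (0%) and muscle minus spleen (0%). At an unadjusted p under 0.05 there were 14 members (12.0% of all genes), 11 (4.37%) and 17 (13.4%). The smallest adjusted p among members was 0.234, 0.972 and 0.148.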

How the data were processed

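The deposited files hold raw whole-number counts per gene identifier, 1 library per file. Build galGal4 and the tools HISAT2 2.0.4, featureCounts, FastQC, Cuffdiff and Cufflinks are named, without role or order, per the submitters' processing notes. Libraries came from a stranded TruSeq kit, per the labels' protocols. The strand setting was not given in the sources used here, and overlapping genes, antisense genes and near-identical paralogs are therefore uncertain.

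Counts were analysed in R 4.3.3 with edgeR 4.0.16 (TMM, filterByExpr, robust quasi-likelihood test) for each tissue, and with limma 3.58.1 (trend, robust) for code means and for differences between tissues. Benjamini-Hochberg adjustment covered all genes tested. The rule and both kinds of test were tested on simulated counts. Log2(CPM + 1) levels understate folds of low genes, and ± gives the SD. Limits for 0 counts take 3 counts per library and cover counting error only. No batch is labelled, so none was fitted.

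The members and lists were chosen with earlier results of these data known. Named members are up to 3 per class by gap or correlation, 2 per altitude direction by p, the last rank inside and the first outside, and 2 of the largest group. Marker and pathway lists by symbol could not be used, as 0 identifiers matched. Alternatives were other scaling, filters, pseudocounts, DESeq2 1.42.0, a replicate block and left-out codes.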

Additional observations from a re-analysis of the deposited data

Results flagged for a closer look

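In 11 of 58 sets of 9 codes of an altitude, 1 code lay far from the nearest of the others for the width of the set. Chance gives about 1 in 20 sets, here 2.9. The sets share codes and members, so they are not independent. Their values also chose, grouped or named the members, so the number of sets above 2.9 is not a test. Levels are means of log2(CPM + 1) over the 3 tissues.

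L8 was such a code 5 times. It was low for ENSGALG00000011255 (1.95, next code 4.06) and ENSGALG00000004932 (1.75, next 2.73). It was high for ENSGALG00000032422 (2.84, next 1.95), ENSGALG00000015209 (5.92, next 4.70) and the mean of the group of 19 members (5.56, next 4.70). H7 was low for ENSGALG00000032589 (0.776, next 3.62) and high for ENSGALG00000002618 (3.82, next 2.36). L7 was low for ENSGALG00000032589 (2.22, next 3.88), and L1 for ENSGALG00000038879 (1.09, next 3.05). Several of these members were named for a step, which makes such a code likely.

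The correlation of a code's own libraries over the 100 members was high for H6 between heart and spleen (0.851, next 0.787 among high altitude codes). It was low for L3 between breast muscle and spleen (0.425, next 0.597 among low altitude codes). In no set was the heart library labelled L9 such a code.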

How the results depend on the processing

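With the whole rule rerun, 56 of the 100 members were chosen again with no exclusion, 43 in the high altitude codes alone, 32 in the low altitude codes alone and 49 without H1, H4, H7 and H8. With rank correlation (Spearman) in place of Pearson, 67 were chosen again. The smallest rank correlation of the 100 members had a median of 0.612 and a minimum of 0.276. Members with a step numbered 20 at a gap of 0.25 and 3 at a gap of 1. On/off members numbered 0 at a gap of 1, 0 at an off limit of 0.5 CPM, 2 at an off limit of 2 CPM, and, by alternatives chosen after seeing the data, 2 without code L9 and 10 with near-zero codes. For altitude, DESeq2 called 3 heart, 7 muscle and 1 spleen members (22 of 11872, 469 of 9923 and 20 of 13092 genes). Without H1, H4, H7 and H8, edgeR called 2 members in breast muscle (2 of 10418 genes). The other altitude settings called 0 members. Leaving out each code in turn, the code mean called 0 to 0 members. At an unadjusted p under 0.05 there were 6 to 22 members, and 540 to 1289 of all 9413 genes. The 4 named fold changes kept their sign in 23 of 23 settings, which naming by small p makes likely. Without H1, H4, H7 and H8 the limma adjusted p was 0.0598 for ENSGALG00000032571. It was 0.99998 for ENSGALG00000041988, ENSGALG00000003991 and ENSGALG00000037321. The sizes of the fold changes moved, from -1.53 to -0.63 for ENSGALG00000041988 and from -0.79 to -0.49 for ENSGALG00000003991. For ENSGALG00000032571 they ran from 0.91 to 1.78 and for ENSGALG00000037321 from 0.56 to 0.85. The cause of these changes was not tested.

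The replicate block, with the number 1 to 9 shared by H and L, called 0 members in each of the 7 fits. At an unadjusted p under 0.05 there were 18 members in heart (931 of 11872 genes) and 16 in breast muscle (1537 of 10120 genes). Spleen had 9 (739 of 13092 genes) and the code mean 24 (1042 of 9413 genes). The breast muscle count is close to the share of all genes. The labels do not say that the numbers pair birds, and same-numbered libraries deviated together (r over 0.1) in 6, 3 and 6 of 9 pairs. The r ran from -0.215 to 0.633 in heart, from -0.302 to 0.422 in breast muscle and from -0.427 to 0.510 in spleen. The highest heart value was that of H9 with the library labelled L9. The share for pairs of unlike number is not given, so these counts have no background.

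Members with few counts per library are limited by depth.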
